A study of Mus musculus with 3 samples.

Results

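The genes described here are 10 genes of the liver X receptor (LXR) pathway and of lipid efflux and storage, namely Abca1, Abcg1, Apoe, Nr1h2, Nr1h3, Mylip, Srebf1, Lpl, Plin2 and Ch25h. They were given as a list of symbols, with no measured value in the rule, and are 10 of 55536 annotated genes and of 22028 annotated protein-coding genes in the tables. LXRs are nuclear receptors that bind oxysterols, which are oxidised forms of cholesterol, and act on DNA as a pair with a retinoid X receptor (RXR). In a macrophage loaded with cholesterol they switch on genes for exporting it through membrane transporters to lipoproteins, for taking up less of it, and for making fatty acids. Lipid that is not exported is kept as esters in lipid droplets, and this balance is known to be altered when macrophages meet bacterial products.

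Total RNA depleted of ribosomal RNA was sequenced from the cytosolic fraction of macrophages that had been cultured from the bone marrow of C57BL/6J mice, in 3 libraries of 1 group. The cells received Lipid A, the part of bacterial endotoxin that Toll-like receptor 4 senses, at 100 ng/ml for 12 hours, were washed and rested for 12 hours, and received 100 ng/ml again for 40 minutes. No untreated, single-dose or nuclear sample was used here, so every value is a level in this one state and none is a response to Lipid A. Age and sex were not collected, and no genetic change is labelled. The 3 biological replicates carry the same donor label, so it is not known whether they came from separate animals. The p-values therefore speak only for these samples, and those from limma fits also draw on the spread of other genes.

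The libraries held 38197192, 46327891 and 38685666 expected counts over annotated genes in replicates 1, 2 and 3. They differed beyond sampling noise, with a chi-square per degree of freedom of 44.7 to 113 between pairs, and no library was counted as a repeat of another. Nuclear protein-coding genes took 27.7% to 33.3% of all TPM (a level per transcript length, scaled to the total of the library), and 7SL RNA, the RNA of the signal recognition particle, took 54.4% to 63.0%. All 10 macrophage markers were detected, here meaning at least 1 TPM in each library, led by Lyz2 at 3020 ± 549 TPM (SD, n = 3). Among 10 adipocyte markers 1 did so, Lipe, which macrophages also express, at 8.11, 5.94 and 7.14 TPM, while Adipoq and Plin1 were at 0. The list's summed level was 5.96 to 8.16 TPM. None of 10 hepatocyte markers reached 1 TPM (sum 0.06 to 0.36 TPM, Alb at 0, Apoa2 highest at 0.24 TPM). Of the remaining marker lists, 2 of 9 neutrophil markers (sum 7.02 to 9.87 TPM, led by S100a9 at 4.55 TPM, Ly6g at 0), 1 of 9 endothelial and stromal markers (3.59 to 9.47 TPM, led by Kdr, Col3a1 at 0), 1 of 9 B, T and NK cell markers (1.26 to 2.21 TPM, led by Cd79b), 1 of 8 dendritic cell markers (2.10 to 4.39 TPM, led by Batf3) and none of 9 mast cell, basophil and erythroid markers (0.59 to 0.84 TPM, led by Kit) reached 1 TPM in all 3 libraries. The other detected neutrophil marker was S100a8, at 3.22 TPM. Among the endothelial markers, Pecam1 had 1.39, 0.72 and 1.01 TPM and Cdh5 had 0.47, 0.13 and 0.12 TPM.

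The levels of the 10 genes covered a wide range, from Apoe, which was higher than 99.9% of nuclear protein-coding genes, to Ch25h, whose mean was under 1 TPM. All genes but Ch25h were detected in the 3 libraries, which is 9 of 10, against 41.4% of all protein-coding genes. Their median log2(TPM + 1) was 5.49, against 0.23 over all protein-coding genes and 3.25 over the 9106 nuclear protein-coding genes detected in all 3 libraries. These comparisons are description only, because the 10 genes were chosen with earlier results of these data known. In order of mean level they were Apoe, Plin2, Lpl, Abcg1, Abca1, Nr1h3, Nr1h2, Mylip, Srebf1 and Ch25h. Neighbours in that order whose ranges over libraries overlapped were Abcg1 and Abca1, Nr1h2 and Mylip, and Mylip and Srebf1. Of these pairs, Mylip and Srebf1 kept their order in 2 of 3 libraries, with a mean difference of 0.21 ± 0.43 on the log2(TPM + 1) scale (SD, n = 3). Every other pair of neighbours kept its order in 3 of 3 libraries. In bulk RNA a lower level from fewer cells cannot be told apart from less RNA per cell.

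**Figure D1:**
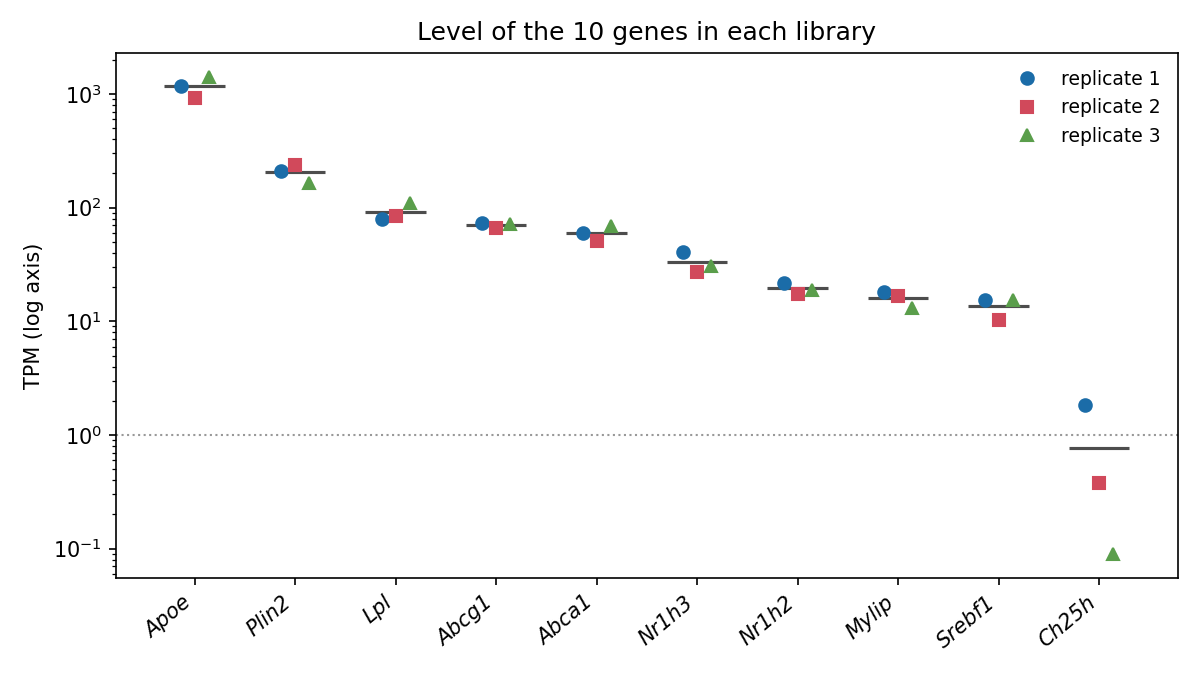
Level of each gene in TPM on a log axis, with 1 point per library and a line at the mean of 3 libraries. The dotted line marks 1 TPM. Apoe lies between 923 and 1412 TPM, 8 genes lie between 10.3 and 238 TPM, and Ch25h spreads from 0.09 to 1.82 TPM.

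Both LXR genes were present, and the alpha form was the higher. Nr1h3, which encodes LXRα, the form best known from macrophages, liver and fat, had 41.0, 27.4 and 30.9 TPM in replicates 1, 2 and 3. Nr1h2, which encodes the widely expressed LXRβ, had 21.9, 17.5 and 19.0 TPM. The ranges did not overlap. Replicate 1 was the highest library for both genes, and replicate 2 the lowest. Within libraries Nr1h3 exceeded Nr1h2 by 0.72 ± 0.08 on the log2(TPM + 1) scale (SE, n = 3, higher in 3 of 3 libraries; limma, adjusted p = 1.26e-05), where 22% of 9415 protein-coding genes with a mean of at least 1 TPM were called higher than Nr1h2. All genes of such a fit share the denominator's 3 values, which makes these p-values too small. In a fit added after the data were seen, in which every ratio has a denominator of its own, the adjusted p was 0.000284. In either fit the SE and p-value cover the spread between libraries. They do not cover an error in a gene's TPM that all 3 libraries share, such as one from its annotated length or the quantifier. The exact two-sided sign-flip permutation p was 0.25 for this and every other ratio given here, the smallest that 3 libraries allow.

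Nr1h3 also exceeded Rxra, the gene of its partner RXRα, by 1.25 ± 0.15 log2 (SE, n = 3, 3 of 3 libraries; limma, adjusted p = 8.75e-17, and 1.55e-05 with a denominator per ratio), and 29.8% of genes were called higher than Rxra. The adjusted p of 8.75e-17 rests on the shared denominator and is not a usable measure of error. Rxra itself had 14.8, 10.6 and 14.3 TPM. The RXRγ gene Rxrg and the PPARα gene Ppara were at 0 counts in all 3 libraries, and 3 counts, the limit that a count of 0 allows, correspond to a CPM, the count scaled to library size, of 0.0648 to 0.0785. The other 15 of 17 RXR partners, coregulators and related nuclear receptors were detected in all 3 libraries. The highest were Ncor1, a corepressor that LXRs recruit, at 50.1 ± 4.53 TPM, Ncoa3, a coactivator, at 28.7 ± 3.71 TPM, and Ep300, a histone acetyltransferase, at 26.2 ± 3.61 TPM (SD, n = 3 each). The corepressor gene Ncor1 thus stood above both LXR genes in each library, on a scale per transcript length.

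Each LXR gene was spread over several annotated transcripts. For Nr1h3 (chromosome 2, 91184061 to 91202834, minus strand, GRCm38), the transcript Nr1h3-201 held 56.2% ± 5.55 of the gene's TPM and Nr1h3-202 21.2% ± 1.43 (SD, n = 3). For Nr1h2 (chromosome 7, 44549616 to 44553951, minus strand), Nr1h2-201 held 38.9% ± 3.53, Nr1h2-202 22.6% ± 4.23 and Nr1h2-203 18.0% ± 0.50. The other 15 of the 18 annotated Nr1h2 transcripts each held less than 5% on average. Nr1h3 lies over the non-coding gene Gm13783 on the same strand, which had 0.10 to 0.39 TPM.

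The cholesterol transporters Abca1 and Abcg1 were expressed at similar levels. Abca1 passes cholesterol and phospholipid to lipid-poor apolipoprotein A-I, and Abcg1 adds cholesterol to formed high-density lipoprotein. Abca1 (chromosome 4, 53030787 to 53159895, minus strand) had 59.7, 50.4 and 69.2 TPM, and Abcg1 (chromosome 17, 31057675 to 31117988, plus strand) had 73.1, 65.8 and 72.2 TPM. In TPM Abca1 was the more variable of the pair, with a coefficient of variation of 15.7%, against 5.73% for Abcg1. The relative spread of counts beyond counting error was closer, 0.150 against 0.119, but edgeR draws each such estimate towards that of genes at a similar level. Without replicate 3 this spread was 0.120 for Abca1 and 0.121 for Abcg1. Abca1 was below Abcg1 in 3 of 3 libraries, with differences of -0.29, -0.38 and -0.06 on the log2(TPM + 1) scale and a mean of -0.24 ± 0.09 (SE; limma, adjusted p = 0.0304), in a fit where 91.5% of genes were called lower than Abcg1. This call does not hold in several alternatives: the adjusted p was 0.0633 with a denominator per ratio, 0.0937 without replicate 1 and 0.197 without replicate 2. Soat1, which esterifies cholesterol for storage, was higher than Abca1, at 155, 147 and 135 TPM. Abca1 minus Soat1 was -1.36, -1.53 and -0.96 log2, with a mean of -1.28 ± 0.12 (SE; limma, adjusted p = 3.52e-06, and 3.90e-05 with a denominator per ratio; 96.2% of genes were called lower than Soat1).

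Nearly all of each transporter's RNA was assigned to 1 coding transcript. Abca1-201, with 50 exons and 10262 bases, held 99.3% ± 0.80 of the gene's TPM, and Abcg1-201, with 15 exons and 5832 bases, held 97.3% ± 1.17 in the alignment-based table and 85.0% ± 1.43 in the read-based table (SD, n = 3). The rRNA-type gene Gm25447 lies inside Abcg1 on the same strand and was listed at 0, 11.4 and 0 TPM. Of 13 genes for intracellular sterol transport and efflux partners, 9 were detected in all 3 libraries and 4 in none. Npc2 and Npc1, which carry cholesterol out of lysosomes, had 291 ± 47.9 and 45.5 ± 1.85 TPM, and Stard3, a sterol carrier of late endosomes, had 39.4 ± 5.79 TPM (SD, n = 3 each). Apoa1, which encodes the acceptor that Abca1 loads, and Cav1 were below 1 TPM in every library, with at most 1 and 4 expected counts.

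LXR and RXR bind a direct repeat with 4 bases between its parts, called DR4, which is written here as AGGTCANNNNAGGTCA with N for any base. Elements of this kind have been described in the promoters of mouse Abca1 and of the SREBP-1c form of Srebf1. The promoter windows from RefSeq (build GRCm38.p6, 250 bases before to 50 after a gene start) were searched on both strands, and 8 of the 10 genes have windows there, 13 in all. Abcg1 and Lpl have none in the table. The closest matches, with 3 mismatches in the 12 fixed letters, were 1 window of Abca1 and 1 of Srebf1, and they are shown because these genes are LXR targets whose levels are described here. Capitals mark the 16-base match, read on the plus strand, opposite to the gene.
Abca1, chr4:53159940-53159969: agcgccgGGGTTACTACCGGTCAaacgctg
Srebf1, chr11:60210631-60210660: cgcgctgGGGTTACTGGCGGTCActgtcgt
Counted from the gene start, with negative positions before it, the Abca1 match lies at -67 to -52. The Srebf1 match lies at -182 to -167 from the start at position 60210471, which serves the SREBP-1c form. Matches this close were in 2 of 13 windows of these genes, against 21.9% of all 32851 windows, and with at most 2 mismatches in none, against 3.02%. The share was thus no higher in these windows than in all windows. With 13 windows, several of them from the same gene and none from Abcg1 or Lpl, a difference in frequency could not be told. The windows of Apoe, Nr1h2, Nr1h3, Plin2 and Ch25h had at best 4 mismatches, and that of Mylip had 5.

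Apoe was by far the most abundant of the 10 genes. It encodes apolipoprotein E, which macrophages secrete and which takes up exported cholesterol. Apoe (chromosome 7, 19696109 to 19699188, minus strand) had 1164, 923 and 1412 TPM, highest in replicate 3 and lowest in replicate 2. It exceeded the next gene, Plin2, by 2.50 ± 0.57 log2 (SD, n = 3), in 3 of 3 libraries. Apoc1, its neighbour in the same gene cluster and also a known LXR target, had 2.18, 0.87 and 2.48 TPM from 26, 15 and 34 expected counts. Apoe exceeded Apoc1 by 8.52, 8.95 and 8.67 log2, with a mean of 8.71. With a denominator per ratio the SE was 0.12 (limma, adjusted p = 7.46e-09). In the fit with Apoc1 as the shared denominator the SE was 0.27, and 79.1% of genes were called higher than Apoc1. That fit gave a limma adjusted p of 8.5e-217, which is not a usable measure of error.

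The Apoe RNA was divided among 3 main annotated transcripts. Apoe-209 held 65.7% ± 1.90 of the TPM, Apoe-202, which is annotated as a processed transcript without a coding sequence, held 22.6% ± 2.72, and Apoe-206 held 11.0% ± 1.46 (SD, n = 3). In the read-based table the shares of Apoe-209 and Apoe-202 were 64.9% ± 1.75 and 26.3% ± 3.72, so the 2 tables gave the same order.

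Mylip encodes an E3 ubiquitin ligase, also called IDOL, that LXRs induce and that limits the uptake of lipoproteins. Mylip (chromosome 13, 45389742 to 45412022, plus strand) had 18.1, 16.5 and 13.0 TPM. Replicate 3 was the lowest, and the ranges of Mylip and Nr1h2 overlapped. Of 9 genes of lipoprotein uptake, 5 were detected in all 3 libraries and 4 in none. Lrp1, a large endocytic receptor that binds apolipoprotein E, had 91.4 ± 13.7 TPM, and Cd36, a scavenger receptor, had 32.9 ± 4.18 TPM, both above Mylip in each library. Lrpap1, a chaperone of such receptors, had 23.9 ± 1.83 TPM (SD, n = 3 each). Lrp8 and Lsr, other lipoprotein receptors, were below 1 TPM, at 0.42 ± 0.11 and 0.10 ± 0.03 TPM.

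Srebf1 encodes the transcription factors SREBP-1a and SREBP-1c, which differ in their first exon. SREBP-1c is the form that LXRs are known to induce in liver, where it drives fatty acid synthesis, and SREBP-1a is the form with the longer activation domain. Srebf1 (chromosome 11, 60199089 to 60222581, minus strand) had 15.4, 10.3 and 15.5 TPM, lowest in replicate 2. Srebf2, whose product mainly controls genes of cholesterol synthesis and uptake, had 22.7, 19.3 and 20.2 TPM. Srebf1 minus Srebf2 was -0.53, -0.85 and -0.37 log2 (mean -0.58 ± 0.10, SE; limma, adjusted p = 0.00105, and 0.00238 with a denominator per ratio; 72.6% of genes were called lower than Srebf2). In the read-based table the difference was smaller, -0.27 ± 0.09 (limma, adjusted p = 0.0212).

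The coding starts of the transcripts that carry these forms are shown because the forms differ there. The sequences are from the GENCODE M21 transcripts (GRCm38, minus strand of chromosome 11). Capitals mark the coding bases of each transcript's own first exon, 91 in Srebf1-201 and 19 in Srebf1-207, and lower case marks the first 30 bases of the exons that both share. Read as codons, Srebf1-201 starts as SREBP-1a and Srebf1-207 as SREBP-1c. The annotated transcripts also differ in length, 4299 and 3177 bases.
Srebf1-201: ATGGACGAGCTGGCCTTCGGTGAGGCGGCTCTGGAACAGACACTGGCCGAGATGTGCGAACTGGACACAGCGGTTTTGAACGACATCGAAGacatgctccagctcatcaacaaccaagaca
Srebf1-207: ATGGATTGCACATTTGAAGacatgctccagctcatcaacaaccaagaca
In the alignment-based table Srebf1-201 had 9.33, 7.56 and 10.1 TPM, and Srebf1-207 had 1.99, 1.31 and 2.22 TPM. The 1a transcript was thus the higher in every library, by 4.69, 5.77 and 4.53 times. In the read-based table the same ratio was 2.46, 2.58 and 2.27. The order was the same in both tables, and its size depended on the quantifier.

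As a share of the gene's TPM, Srebf1-201 held 66.3% ± 6.51 in the alignment-based table and 46.4% in the read-based table, and Srebf1-207 held 13.3% ± 0.89 and 19.1% (SD, n = 3). The remaining annotated coding transcript, Srebf1-203, which starts further downstream, held 9.23% ± 1.11 and 4.10%. The clearest disagreement was Srebf1-204, a processed transcript of 367 bases at the far upstream start, with a mean of 0.63% in the alignment-based table and 13.4% in the read-based table. The gene total of Srebf1 was also the one of the 10 that differed most between tables. After both tables were rescaled over the same genes, the read-based level was higher by 0.30 ± 0.05 log2 (SD, n = 3), where the middle 90% of 9106 detected genes lay between -0.15 and 0.39. Srebf1 overlaps Rai1, a gene on the opposite strand with 2.04 to 2.94 TPM, and whether counting used the strand is not given in the sources used here.

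**Figure D2:**
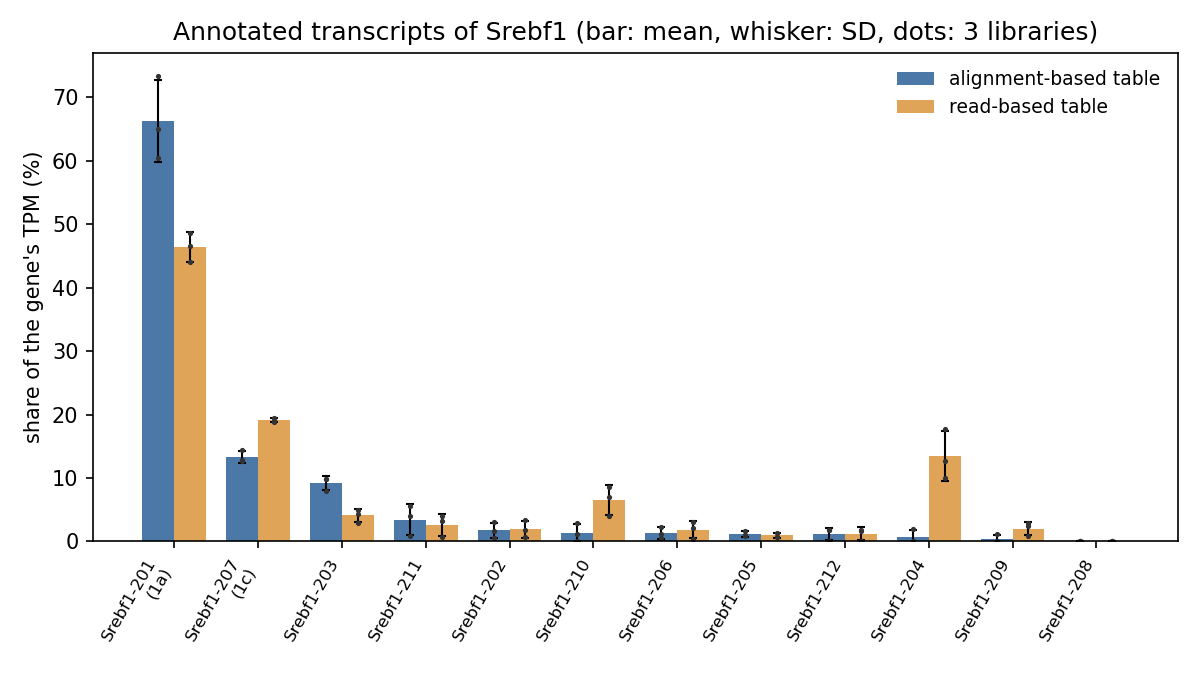
Share of the Srebf1 TPM held by each of 12 annotated transcripts, in percent, in the alignment-based and the read-based table. Bars are means, whiskers SD and dots the 3 libraries; Srebf1-201 leads at 66.3% and 46.4%, and Srebf1-204 differs most in relative size, at 0.63% and 13.4%.

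Plin2 and Lpl were the highest of the 10 genes after Apoe. Plin2 encodes perilipin 2, which coats lipid droplets in most cells, and Lpl encodes lipoprotein lipase, a secreted enzyme that frees fatty acids from triglyceride-rich lipoproteins. Plin2 (chromosome 4, 86648386 to 86670060, minus strand) had 211, 238 and 165 TPM, and Lpl (chromosome 8, 68880491 to 68907448, plus strand) had 79.6, 83.6 and 109 TPM. The libraries ranked differently for these genes, since replicate 3 was the lowest for Plin2 and the highest for Lpl. Plin3, another droplet coat gene, had 10.1, 10.1 and 9.02 TPM. Plin2 exceeded Plin3 by 4.26, 4.42 and 4.05 log2 (mean 4.25 ± 0.11, SE; limma, adjusted p = 1.36e-14, and 2.88e-08 with a denominator per ratio; 39% of genes were called higher than Plin3). Lipa, the lysosomal lipase that frees cholesterol from lipoprotein esters, had 153, 146 and 133 TPM. Lpl minus Lipa was -0.93, -0.80 and -0.27 log2 (mean -0.67 ± 0.13, SE; limma, adjusted p = 0.000474, and 0.00274 with a denominator per ratio; 96.1% of genes were called lower than Lipa).

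Of 26 genes of lipid droplet storage and lipolysis, 16 were detected in all 3 libraries and 9 in none. The highest was Fabp5, a fatty acid carrier, at 1196 ± 143 TPM, near the level of Apoe, followed by Soat1 at 146 ± 9.97 TPM and Lipa at 144 ± 10.4 TPM (SD, n = 3 each). Cidea and Cideb, droplet proteins known from fat and liver, were below 1 TPM in every library. Of 10 partners of lipoprotein lipase 4 were detected in all 3 libraries and 6 in none. Sel1l and Lmf1, which help the enzyme fold in the endoplasmic reticulum, had 22.8 ± 2.69 and 3.46 ± 0.26 TPM, and Lipg, a related lipase, had 11.3, 12.1 and 4.83 TPM. Angptl4 and Angptl6 were below 1 TPM in every library, and Angptl4, an inhibitor of lipoprotein lipase, had 3, 14 and 12 expected counts. Lpl-201 held 99.5% ± 0.12 of the Lpl TPM, while Plin2-201 held 82.3% ± 1.00 and the processed transcript Plin2-208 held 10.6% ± 1.11.

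Ch25h was the lowest of the 10 genes and the only one to differ many times over between libraries. For the other genes the highest library was at most 1.53 times the lowest. It has 1 exon (chromosome 19, 34473778 to 34475164, minus strand) and encodes cholesterol 25-hydroxylase, which makes an oxysterol that LXRs bind, and it is known as an interferon-induced gene of macrophages. It had 1.82, 0.38 and 0.09 TPM in replicates 1, 2 and 3, from 117, 36 and 7 expected counts. As CPM these were 3.06 (exact Poisson 95% interval 2.53 to 3.67), 0.777 (0.544 to 1.08) and 0.181 (0.0727 to 0.373), and the intervals, which cover counting error only, did not overlap. Replicate 1 was thus 20.2 times replicate 3 in TPM. A non-coding gene on the opposite strand, Gm26902, overlaps Ch25h and had 0 to 0.06 TPM.

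Cyp27a1, a mitochondrial enzyme that makes another oxysterol, was higher than Ch25h in every library, at 6.28, 3.26 and 5.73 TPM. Ch25h minus Cyp27a1 was -1.37, -1.63 and -2.63 log2 (mean -1.87 ± 0.66, SD, n = 3). With all 3 libraries, the deposited TPM and the filter on low values this pair had no test, since Ch25h had a mean TPM under 1. Without that filter limma gave an adjusted p of 2.82e-16 from the shared denominator. Its SE was 0.226 beside an SD of 0.66 for the pair, so this p-value is not a usable measure of error. Without replicate 3, the lowest library of Ch25h, the pair passed the filter and the mean was -1.50. No p-value is given for that setting. Of 12 genes of oxysterol synthesis, metabolism and sensing, 7 were detected in all 3 libraries and 5 in none. Insig1, which holds SREBPs in the endoplasmic reticulum when sterols are plentiful, had 28.4 ± 5.11 TPM, and the oxysterol-binding protein genes Osbpl9 and Osbp had 23.9 ± 2.52 and 9.62 ± 1.01 TPM (SD, n = 3 each). Cyp46a1, the hydroxylase of neurons, was at 0 counts, and Cyp11a1, the first enzyme of steroid hormone synthesis, had at most 2 expected counts.

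**Figure D3:**
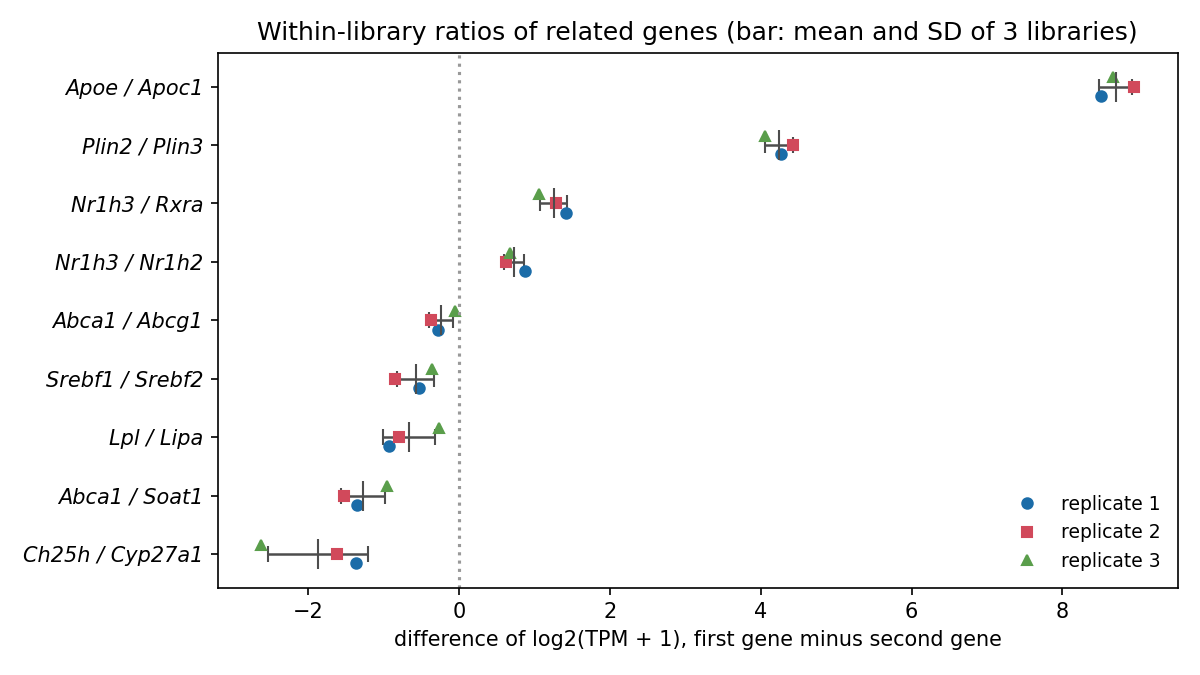
Difference of log2(TPM + 1) within each library, first gene minus second gene, for 9 pairs of related genes, with 1 point per library and a bar for the mean and SD. Each pair lies on one side of 0 in 3 of 3 libraries, and Abca1 / Abcg1 comes closest to 0, at -0.06 in replicate 3.

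Other genes described as LXR targets ran from 0 counts to 164 TPM. Of 21 such genes 12 were detected in all 3 libraries and 7 in none, and their median log2(TPM + 1) was 3.19. The highest were Pltp, which transfers phospholipid between lipoproteins, at 164 ± 18.2 TPM, Cd5l, a secreted macrophage protein, at 75.3 ± 15.7 TPM, and Scd2, a fatty acid desaturase, at 61.1 ± 9.26 TPM (SD, n = 3 each). Abcg5, a sterol exporter of liver and intestine, and Abcb11, a bile salt exporter better known as a target of the bile acid receptor, were at 0 counts in all 3 libraries. The medians of the remaining lists were 3.51 for partners and coregulators, 3.45 for lipoprotein uptake, 2.50 for oxysterol genes, 2.40 for droplet storage, 2.56 for sterol transport and 0.42 for lipase partners.

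**Figure D4:**
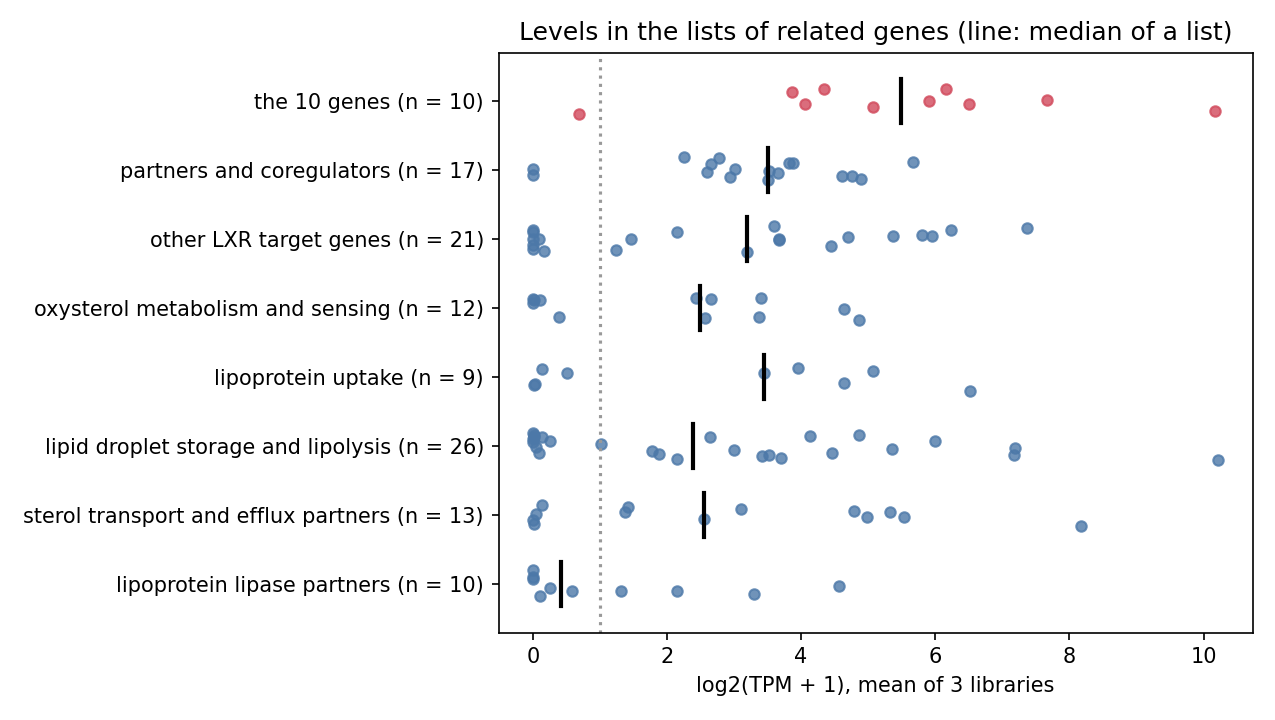
Mean log2(TPM + 1) of 3 libraries for each gene of the 10 and of 7 lists of related genes, with a line at each median and a dotted line at 1 TPM. The 10 genes have the highest median, 5.49, and the lipase partners the lowest, 0.42. The genes and lists were chosen with earlier results of these data known.

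The spread between libraries differed among the genes. In an edgeR model of 12752 genes the biological coefficient of variation, which is the relative spread beyond counting error, was 0.189 in common. The estimate for a single gene is drawn towards that of genes at a similar level. It was 0.0954 for Nr1h2, where 2.90% of genes were lower, and 0.179, 0.178 and 0.167 for Apoe, Lpl and Plin2, where 61.7%, 61.4% and 58.4% of genes were lower. Abca1 had 0.150, Mylip 0.128, Srebf1 0.125, Abcg1 0.119 and Nr1h3 0.116. The order of these genes depended on the libraries used: without replicate 3, Nr1h2 had 0.106, where 10.4% of genes were lower, above Mylip at 0.104 and Srebf1 at 0.103, and Apoe had 0.124, where 34.6% were lower. Without replicate 2, Abca1 at 0.148 was above Plin2 at 0.127. Ch25h did not pass the filter on low counts, and without that filter it had 0.767, where 97.0% of genes were lower.

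The library deviation is the log2(TPM + 1) of a gene in a library relative to its mean in the other libraries, after the median shift of all detected genes was taken off. Replicate 3 was the highest library for 5 of the 10 genes, namely Abca1, Abcg1, Apoe, Srebf1 and Lpl, against 33.5% of 9106 detected genes. The deviations in replicate 3 were 0.40 for Abca1, 0.13 for Abcg1, 0.52 for Apoe, 0.35 for Srebf1 and 0.49 for Lpl, where the 95th percentile of detected genes was 0.30. In the read-based table replicate 2 was the highest for Abcg1 instead. Plin2 and Mylip went the other way, with -0.36 and -0.31 in replicate 3, where the 5th percentile was -0.34, and both were highest in replicate 2, against 34.6% of detected genes. With Ch25h they make 3 genes that were lowest in replicate 3, against 32.6%. Replicate 1 was the highest for Nr1h2, Nr1h3 and Ch25h (3 genes), against 31.9%. Replicate 2 was the lowest for 5 genes, namely Abca1, Apoe, Nr1h2, Nr1h3 and Srebf1, against 34.3%. Abcg1 and Lpl were lowest in replicate 1 (2 genes), against 33.1%. For Nr1h2 the deviations were only 0.05, -0.09 and 0.04, and with TMM-normalised counts its highest library was replicate 3 and its lowest was replicate 1. That scaling makes replicate 3 the highest for 6 genes and replicate 1 for 2.

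Replicate 2 also stood apart in nuclear RNAs, which a cytosolic fraction should hold little of. Malat1 had 1445, 485 and 1726 TPM, and Neat1 had 87.7, 16.1 and 88.3 TPM, with deviations in replicate 2 of -1.58 and -2.27. The part of these RNAs in the low values of replicate 2 was not tested. The same library had the lowest share of TPM in transcripts not annotated as protein-coding (among them transcripts with retained introns), for 64.4% of 7228 genes. Of the 8 genes here with such transcripts, 5 had their lowest share there, namely Abca1, Abcg1, Nr1h2, Nr1h3 and Srebf1, which is close to that background. In the read-based table the count was 6 of 8, with Lpl added, against 69.9% of genes. For Srebf1 the share was 16.7%, 4.07% and 12.7% in the alignment-based table, but 29.6%, 28.1% and 33.6% in the read-based table, where replicate 2 was close to replicate 1. For Nr1h2 it was 7.87%, 4.12% and 8.54% in the alignment-based table, and 12.9%, 7.61% and 17.3% in the read-based table. In the alignment-based table Apoe and Lpl had their lowest share in replicate 3, at 19.6% and 0.34%, and Plin2 in replicate 1, at 10.5%.

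**Figure D5:**
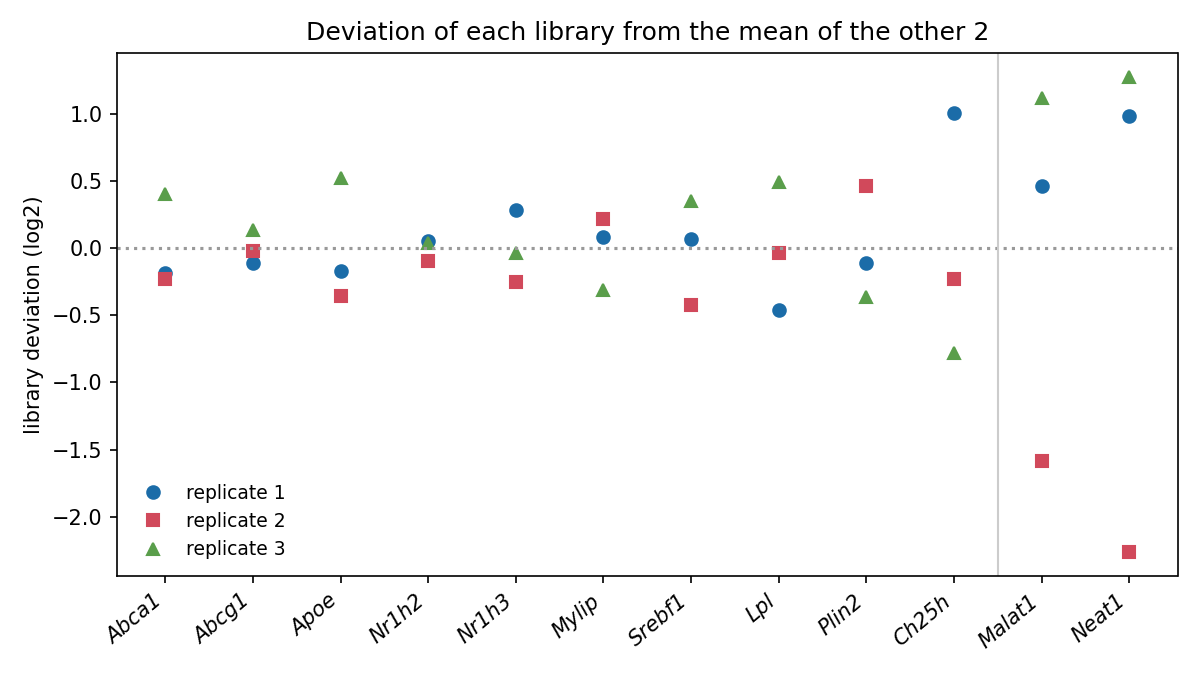
Library deviation on the log2 scale for the 10 genes and, right of the line, for Malat1 and Neat1, with 1 point per library. Apoe, Lpl, Abca1 and Srebf1 are highest in replicate 3, between 0.35 and 0.52, Plin2 is highest in replicate 2, at 0.46, and Neat1 is lowest in replicate 2, at -2.27.

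The precision within a library was finer than the spread between libraries. They spanned 1.63% to 2.07% of the level for Apoe, where the range over libraries was 41.9% of the mean. For Srebf1 they spanned 12.5% to 18.7%, where that range was 37.6%, and for Nr1h2 13.6% to 16.2%, where it was 22.6%. For Ch25h they spanned 35.4% to 150%. The level of confidence of these bounds is not given in the sources used here. For Apoe and Lpl the deposited TPM lay above its own upper bound in all 3 libraries. Apoe in replicate 3, for example, had 1412 TPM against an upper bound of 1399. Abca1 lay above its upper bound in replicate 1, at 59.73 TPM against 59.37. The bounds are thus not centred on the deposited level and cannot be read as its precision.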

How the data were processed

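Per the labels, 3 libraries of 1 group were made from 1 µg of RNA each, with a size range of 250 to 400. The deposited gene tables hold expected counts, TPM and bounds of TPM, and the deposited transcript tables hold estimated counts and TPM made from transcriptome alignments (alignment-based) or from the reads with an index (read-based). Files accompanying them name mm10 and annotation M21, but no source used here gives the tools or their versions. The deposited percent of each transcript was not used, and shares were computed from the deposited TPM. The deposited bounds are another kind of value, without a stated level. TPM sums to a fixed total, so abundant RNAs lower all other levels.

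Rows without a gene (26345, with 0.104% to 0.356% of counts) were left out. Detection meant at least 1 TPM in each library. Ratios were fitted on log2(TPM + 1), which understates ratios of low genes, with limma 3.58.1 (intercept-only, two-sided, Benjamini-Hochberg over 9415 genes). Expected counts were rounded to whole numbers for the spread, which edgeR 4.0.16 estimated after TMM scaling and filterByExpr (R 4.3.3). The spread of each gene is its moderated (tagwise) estimate. A fit with a denominator per ratio was added after the data were seen. The scripts were tested on simulated data. Python 3.11.15 and pandas 2.3.3 were used for the rest.

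The genes, the 7 lists, the marker lists and the 9 ratios were chosen with earlier results of these data known. Named are the 10 genes, all genes of the ratios, overlapping genes, Malat1 and Neat1. In each list the 3 highest and the first 2 in alphabetical order under 1 TPM in every library are named. Of each marker list the top gene is named. Some markers at 0 TPM, and Pecam1, Cdh5 and S100a8, were added outside that rule. Gpr183 was named after its values were seen. No gene was named for a like pattern, since 3 libraries of 1 group give none to match. Alternatives were another pseudocount, threshold, filter, table, scaling or motif limit, and each library left out in turn. A further gene of the uptake list and its ratio are not reported here.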

Additional observations from a re-analysis of the deposited data

How the results depend on the processing

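All 8 tested ratios kept their direction in every alternative in which they could be fitted. Abca1 to Abcg1 was the exception in its call: the log2 ratio of -0.24 had an adjusted p (limma) between 0.0119 and 0.197 with each replicate left out, where the ratio ran from -0.33 to -0.17, and 0.0633 with a denominator per ratio. The Ch25h to Cyp27a1 ratio of -1.87 had no test in the main setting, where Ch25h fell under the filter on low values. It was -3.16 with a pseudocount of 0.1. With TPM rescaled to nuclear protein-coding genes the pair passed the filter, and the ratio was -2.69 ± 1.23 (SD, n = 3). The limma SE there was 0.258 beside that SD, so its p-value is not a usable measure of error. Apoe to Apoc1 could not be fitted in the read-based table, where Apoc1 was under a mean TPM of 1. Counts of detected genes stayed within 1.5 times under every threshold, scaling and table. The 2 genes with a DR4 match at 3 mismatches became 0 at 2. Absolute levels depend on the scaling most of all: Apoe had 3964 TPM when rescaled to nuclear protein-coding genes, and 444 TPM in the read-based table. Nuclear protein-coding genes held 10.7% to 12.9% of TPM in the read-based table, against 27.7% to 33.3% in the gene table. After both tables were rescaled over these genes, the read-based level of Apoe differed by only -0.07 ± 0.05 log2 (SD, n = 3). Of the library deviations 58 stayed within 1 SD and 2 did not, both of Abcg1 in the read-based table. The 45 alternative values of spread stayed within 1.5 times, though the order of the genes did not hold with replicate 2 or 3 left out, and 7 transcript shares moved by more than 1 SD in the read-based table. The cause of these changes was not tested, apart from the scaling, which raises all levels by construction. Among the genes of the ratios, depth limits Ch25h and Apoc1 most. No pairing between samples was possible because all libraries form 1 group, while the ratios were taken within each library.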

Other observations

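Gpr183, the receptor of an oxysterol made downstream of Ch25h, was below 1 TPM in all 3 libraries, at 0.27, 0.30 and 0.38 TPM from 37, 61 and 63 expected counts. It was picked from the oxysterol list after its values were seen.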
